A study of Mus musculus with 6 samples.

Results

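The genes described here are 9 regulators of chromatin that act in epidermis, out of 24354 genes measured. They were chosen by name, for their roles: Ezh1, Ezh2, Eed and Suz12 of Polycomb repressive complex PRC2, the H3K27 demethylase Kdm6b, the DNA methylation maintenance genes Dnmt1 and Uhrf1, the chromatin organiser Satb1 and the histone deacetylase Hdac1. RNA was sequenced from epidermal cells of mouse embryos at E18.5, shortly before birth, after a flow cytometry sort on abundant α6 integrin, which marks basal keratinocytes. The mutant group held 3 libraries homozygous for Pik3ca H1047R, an activating variant of the catalytic subunit of phosphoinositide 3-kinase, and the wild-type (WT) group held 3 libraries; both carry the strain label C57BL6. The promoter or Cre driver behind the mutant allele, and whether embryos were separate or pooled, are not stated in the labels. The p-values therefore measure sample-to-sample spread that may be technical.

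PRC2 writes the repressive mark H3K27 trimethylation. Ezh2 or its paralogue Ezh1 carries the methyltransferase activity, Suz12 is the scaffold on which the core complex is built, and Eed binds the finished mark and stimulates the enzyme. Kdm6b removes the same mark. In mouse epidermis Ezh2 restrains premature expression of differentiation genes in progenitors, and PRC2 also represses Merkel cell genes. Uhrf1 brings the maintenance methyltransferase Dnmt1 to newly replicated DNA, Satb1 folds the locus of the epidermal differentiation genes in mouse keratinocytes, and Hdac1 is the deacetylase of several corepressor complexes.

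The promoters of 3 core PRC2 genes are printed because these genes, whose products work in one complex, differed in how their RNA levels moved. Each is a RefSeq window (GRCm38.p6) of 250 bases before to 50 bases after the start site, written in the direction of transcription. Capitals mark matches to an E2F motif (TTTGGCGC, TTTCCCGC, TTTGCCGC or TTTCGCGC) or to the FOXO motif GTAAACA, both searched on either strand. The windows lie at chr6:47594981-47595280 on the minus strand for Ezh2, at chr7:89980927-89981226 on the minus strand for Eed and at chr11:79992856-79993155 on the plus strand for Suz12.
Ezh2: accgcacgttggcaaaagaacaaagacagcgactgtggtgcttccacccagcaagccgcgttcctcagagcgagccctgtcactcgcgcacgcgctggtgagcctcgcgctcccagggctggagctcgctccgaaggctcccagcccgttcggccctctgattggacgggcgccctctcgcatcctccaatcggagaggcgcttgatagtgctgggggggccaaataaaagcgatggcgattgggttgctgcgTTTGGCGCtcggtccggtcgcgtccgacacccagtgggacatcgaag
Eed: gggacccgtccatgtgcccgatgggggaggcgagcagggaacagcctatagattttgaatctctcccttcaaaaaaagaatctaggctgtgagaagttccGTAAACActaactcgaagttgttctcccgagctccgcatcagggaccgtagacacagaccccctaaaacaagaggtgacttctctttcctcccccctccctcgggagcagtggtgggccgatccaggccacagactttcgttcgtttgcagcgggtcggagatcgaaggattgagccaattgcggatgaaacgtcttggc
Suz12: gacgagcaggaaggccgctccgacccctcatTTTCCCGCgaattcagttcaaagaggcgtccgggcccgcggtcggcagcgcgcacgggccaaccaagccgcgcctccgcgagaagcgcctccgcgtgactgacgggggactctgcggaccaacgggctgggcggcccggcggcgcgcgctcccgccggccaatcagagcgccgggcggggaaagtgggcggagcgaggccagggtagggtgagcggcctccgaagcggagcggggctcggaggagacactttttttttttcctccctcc

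The Ezh2 window held 1 E2F match, which began 3 bases after the start site, and the Suz12 window held 1, which began 219 bases before it. The Eed window held no E2F match and 1 FOXO match, which began 150 bases before the start site. Of 32851 RefSeq promoter windows of this length, 2.26% held an E2F match and 3.65% held the FOXO motif. GC content was 64.3% in the Ezh2 window, 54.7% in the Eed window and 71.0% in the Suz12 window, against a median of 52.7% over all windows, and the 3 windows held 31, 17 and 41 CpG sites, against a median of 7. CCAAT, in either orientation, occurred 3 times in the Ezh2 window and once each in the other windows, and 37.4% of all windows held it. The GC box GGGCGG occurred 3 times in the Suz12 window, in neither of the other windows, and in 35.7% of all windows. Windows were found for 7 of the 9 genes, 14 windows in all, and E2F matches were also found in 1 window each of Dnmt1 and Uhrf1 but in none of Ezh1 or Satb1. A match is a string of letters and says nothing about binding.

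The values are FPKM, fragments per kilobase of transcript scaled per library, so they can be set side by side between genes. How libraries were scaled to each other is not stated. All 9 genes were measurable in every library. Differences were tested with limma on log2(FPKM + 1), with p-values adjusted over all 11385 genes that averaged 1 FPKM or more, and a gene was called at an adjusted p under 0.05. By this rule 4 of the 9 genes were called, 2 higher and 2 lower in mutant cells, where 46.0% of all tested genes were called, 23.2% higher and 22.8% lower. The groups did not overlap for the same 4 genes, against 56.0% of all tested genes. The median log2 fold change was -0.09 over the 9 genes and 0.01 over all tested genes. The 9 genes were thus called about as often as any tested gene, and the account below concerns which of them moved.

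**Figure D1:**
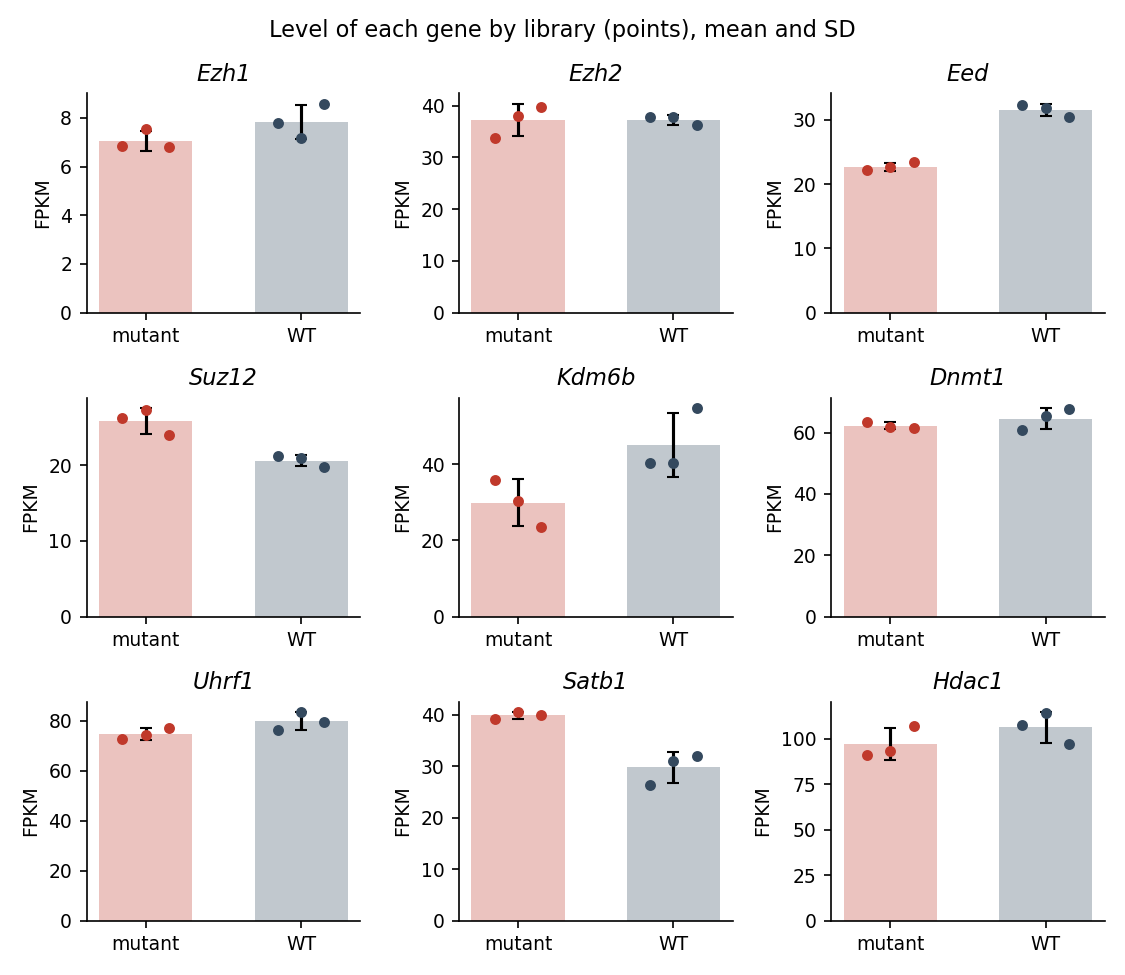
FPKM of each of the 9 genes in every library, mutant left of WT, with points for libraries and bars for the mean and SD (n = 3 each). Suz12 and Satb1 sat higher and Eed and Kdm6b lower in every mutant library than in every WT library, and the groups overlapped for the other 5 genes.

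Among the core PRC2 genes, Eed fell, Suz12 rose, and Ezh2 and Ezh1 did not pass the test. Eed (chromosome 7, 89954654 to 89980976, minus strand, GRCm38) had 22.1, 22.6 and 23.4 FPKM in mutant libraries, against 32.3, 31.8 and 30.5 FPKM in WT libraries. The highest mutant library lay below the lowest WT library. Mean levels were 22.7 ± 0.619 FPKM in mutant cells and 31.5 ± 0.924 FPKM in WT cells (SD, n = 3 each), a ratio of 0.720 and a log2 fold change of -0.46 ± 0.0546 (SE; limma, adjusted p = 0.000442). Of all called genes, 56.7% changed by less than Eed.

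Suz12 (chromosome 11, 79993106 to 80034123, plus strand) had 26.2, 27.3 and 23.9 FPKM in mutant libraries, against 21.2, 20.9 and 19.8 FPKM in WT libraries. The lowest mutant library lay above the highest WT library. Means were 25.8 ± 1.73 FPKM in mutant cells and 20.6 ± 0.757 FPKM in WT cells (SD, n = 3 each), a ratio of 1.25 and a log2 fold change of 0.31 ± 0.0663 (SE; limma, adjusted p = 0.00658). This was a small change among those called, with 27.4% of called genes changing by less. The exact two-sided permutation test gave p = 0.1 for Eed and for Suz12, the smallest that 3 against 3 libraries allow.

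Ezh2 (chromosome 6, 47530274 to 47595030, minus strand), the main catalytic subunit in dividing cells, had 33.8, 38.1 and 39.8 FPKM in mutant libraries, against 37.8, 37.7 and 36.2 FPKM in WT libraries. The mutant libraries lay on both sides of the WT libraries. Both means were 37.3 FPKM, with an SD of 3.08 in mutant and 0.927 in WT cells, and the log2 fold change was 0.00 with an SE of 0.0708 (limma, adjusted p = 0.978). Ezh1 (chromosome 11, 101191115 to 101226463, minus strand), the paralogue that prevails in non-dividing cells, was the lowest of the 9 genes in both groups. It had 6.85, 7.53 and 6.79 FPKM in mutant libraries, against 7.77, 7.16 and 8.57 FPKM in WT libraries, and the groups overlapped (log2 fold change -0.13 ± 0.0791, SE; limma, adjusted p = 0.213). Ezh2 and Eed exons overlap an annotated transcript on the other strand over 174 and 261 bases, Suz12 exons over 178 bases. The labels do not say whether the reads keep strand, and of these partners the one in the table, E230029C05Rik at Eed, was at 0.0216 FPKM in mutant and 0.0255 FPKM in WT cells.

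Ratios of 2 genes within a library do not depend on how libraries were scaled to each other. The Ezh2 to Eed ratio was 1.53, 1.68 and 1.71 in mutant libraries, against 1.17, 1.19 and 1.19 in WT libraries. The Ezh2 to Suz12 ratio was 1.29, 1.39 and 1.66 in mutant libraries, against 1.79, 1.81 and 1.83 in WT libraries. Neither ratio overlapped between groups, and the WT ratios were tightly grouped (SD 0.00836 and 0.0229, n = 3) compared with the mutant ratios (SD 0.0954 and 0.193, n = 3). The Ezh2 to Ezh1 ratio overlapped, with 4.94, 5.06 and 5.86 in mutant and 4.87, 5.28 and 4.22 in WT libraries. Of 5 ratios tested, the exact permutation p was 0.1 for the first pair, the smallest possible, and 0.167 after adjustment over the 5 ratios, while Ezh2 to Ezh1 gave p = 0.4 (adjusted 0.5). The ratio of Suz12 to Eed was picked with its values known and has no test: it was 1.19, 1.21 and 1.03 in mutant libraries, against 0.657, 0.657 and 0.648 in WT libraries. Suz12 RNA thus stood above Eed RNA in each mutant library and below it in each WT library.

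**Figure D2:**
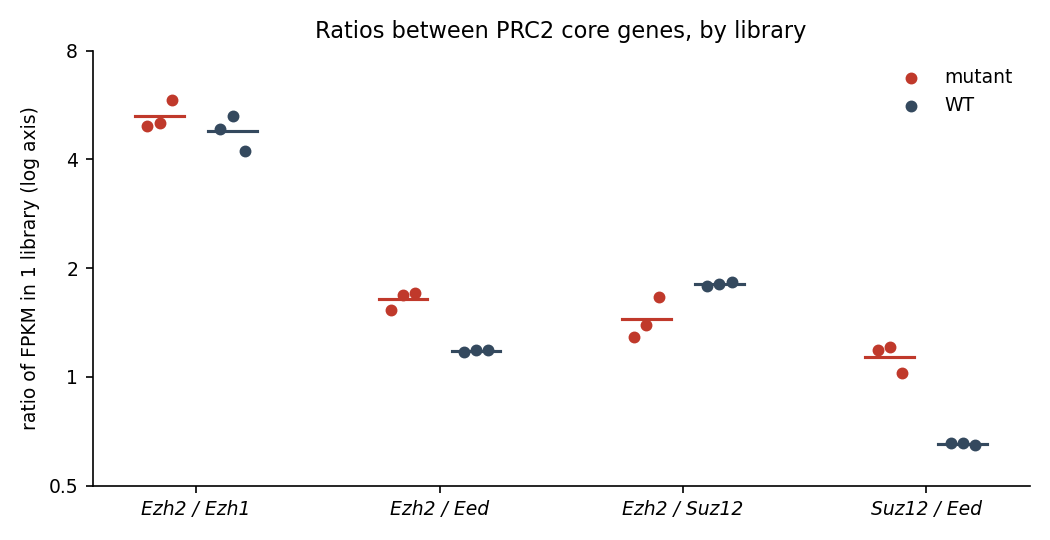
Ratios of FPKM between 2 of the genes within each library, mutant left of WT, on a log axis, with points for libraries and lines for group means. Suz12 to Eed was between 1.03 and 1.21 in mutant libraries and between 0.648 and 0.657 in WT libraries, while Ezh2 to Ezh1 overlapped between groups.

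Kdm6b, which removes the mark that PRC2 writes and in cultured human keratinocytes is needed for differentiation genes, had the largest fold change of the 9 genes and the widest spread. It (chromosome 11, 69398518 to 69413675, minus strand, a part of the annotated gene) had 35.8, 30.4 and 23.6 FPKM in mutant libraries, against 40.2, 40.2 and 54.7 FPKM in WT libraries. The groups did not overlap, with mutant replicate 3 lowest and WT replicate 3 well above the other WT libraries. Means were 29.9 ± 6.10 FPKM in mutant and 45.1 ± 8.38 FPKM in WT cells (SD, n = 3 each), a ratio of 0.664 and a log2 fold change of -0.58 ± 0.165 (SE; limma, adjusted p = 0.0226). The coefficient of variation was 20.4% in mutant and 18.6% in WT cells, against medians of 7.38% and 7.39% over all tested genes. The call ended without mutant replicate 2 (adjusted p = 0.0566), without mutant replicate 3 (adjusted p = 0.0508, log2 fold change -0.42) and without WT replicate 3 (adjusted p = 0.0513, log2 fold change -0.43). Exons of the antisense gene Kdm6bos overlap those of Kdm6b over 286 bases, and their reads cannot be told apart without strand.

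Kdm6b was also the only one of the 9 genes in the top 25% of tested genes in both transcript length (6654 bases) and GC content (59.6%). The 385 genes in that class shifted together between libraries. Their median deviation from the gene means, on the log2 scale, was 0.15, 0.06 and -0.04 in mutant libraries 1 to 3, against -0.15, -0.09 and 0.08 in WT libraries 1 to 3. Kdm6b itself deviated by -0.02, -0.25 and -0.60 in mutant libraries and by 0.14, 0.14 and 0.58 in WT libraries. Mutant replicate 3 was the lowest mutant library and WT replicate 3 the highest WT library for both Kdm6b and the class. Between groups the class ran opposite to Kdm6b, above its mean in mutant replicates 1 and 2 and below it in WT replicates 1 and 2. With trends in length and GC content removed, an alternative added after the data were seen, the log2 fold change of Kdm6b was -0.65 (limma, adjusted p = 0.00186).

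**Figure D3:**
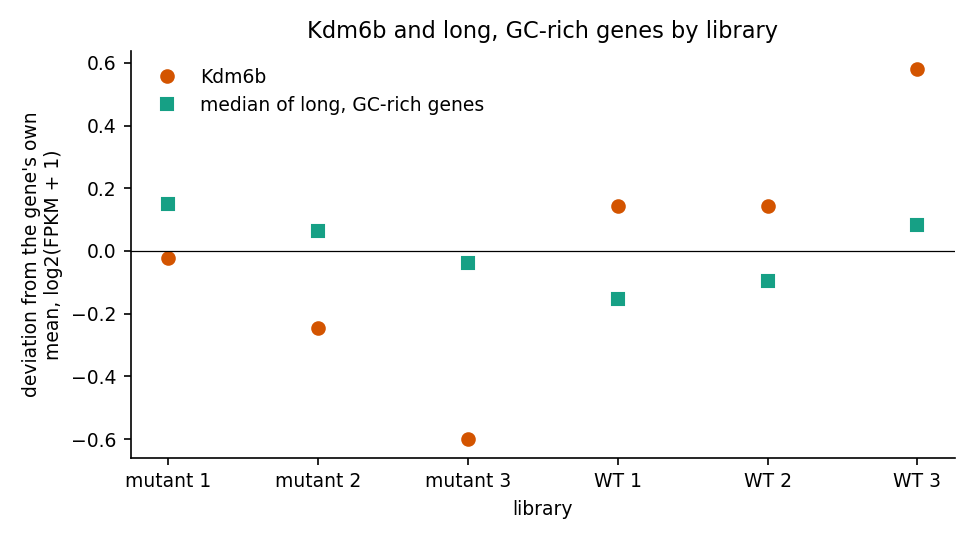
Deviation from the gene mean (log2) in each library, for Kdm6b and for the median of 385 long, GC-rich genes, with mutant libraries left of WT libraries. Both were lowest in replicate 3 among mutant libraries and highest in replicate 3 among WT libraries, while Kdm6b was below its mean in all 3 mutant libraries.

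The ratio of Kdm6b to Ezh2, the eraser to the writer of H3K27 methylation, was 1.06, 0.799 and 0.593 in mutant libraries, against 1.06, 1.07 and 1.51 in WT libraries. Mutant replicate 1 lay at the level of WT replicates 1 and 2. The log2 difference was -0.58, with an exact permutation p of 0.1, the smallest possible, and 0.167 after adjustment over the 5 ratios.

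Satb1 (chromosome 17, 51736187 to 51833290, minus strand), which p63 drives in mouse epidermal progenitors, rose. It had 39.1, 40.5 and 39.9 FPKM in mutant libraries, against 26.4, 31.0 and 32.0 FPKM in WT libraries. Every mutant library exceeded every WT library, and the 3 mutant libraries lay closer together. Means were 39.8 ± 0.672 FPKM in mutant and 29.8 ± 3.01 FPKM in WT cells (SD, n = 3 each), a ratio of 1.34 and a log2 fold change of 0.41 ± 0.0779 (SE; limma, adjusted p = 0.00383; exact permutation p = 0.1, the smallest possible). Satb1 is also abundant in T cells, whose receptor genes Cd3e, Cd3g and Cd3d were at most 0.0867 FPKM in every mutant library and at most 0.0764 FPKM in every WT library. Other T cell genes were measurable: the kinase gene Lck had 2.96, 3.59 and 4.13 FPKM in mutant libraries, against 4.20, 4.04 and 2.72 FPKM in WT libraries (limma, adjusted p = 0.923), and Thy1, which fibroblasts also express, fell to 21.2 ± 4.74 FPKM in mutant cells, against 45.4 ± 2.70 FPKM in WT cells (SD, n = 3 each; adjusted p = 0.000689). Their part in the level of Satb1 was not tested. Exons of Satb1 overlap Gm36931 on its own strand over 156 bases and Gm6934 on the other strand over 128 bases.

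Dnmt1 and Uhrf1, which together keep DNA methylation through cell division and in human epidermis keep progenitors undifferentiated, did not pass the test. Dnmt1 (chromosome 9, 20907206 to 20959888, minus strand) had 63.4, 61.9 and 61.3 FPKM in mutant libraries, against 60.7, 65.3 and 67.6 FPKM in WT libraries, with a log2 fold change of -0.05 ± 0.0609 (SE; limma, adjusted p = 0.526). Uhrf1 (chromosome 17, 56303337 to 56323486, plus strand) had 72.7, 74.3 and 77.3 FPKM in mutant libraries, against 76.3, 83.5 and 79.6 FPKM in WT libraries, with a log2 fold change of -0.09 ± 0.0607 (SE; limma, adjusted p = 0.246). For both genes the groups overlapped. Their ratio, Uhrf1 to Dnmt1, was 1.20 ± 0.0566 in mutant and 1.24 ± 0.0530 in WT cells (SD, n = 3 each; exact permutation p = 0.6, also 0.6 after adjustment over the 5 ratios).

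Hdac1 (chromosome 4, 129516104 to 129542646, minus strand) was the most abundant of the 9 genes in both groups. It had 91.3, 93.3 and 107 FPKM in mutant libraries, against 108, 114 and 97.2 FPKM in WT libraries. Mutant replicate 3 lay above WT replicate 3, so the groups overlapped, and the log2 fold change was -0.13 ± 0.0878 (SE; limma, adjusted p = 0.266). Hdac1 and Uhrf1 values are uncertain, because the genome holds processed copies of both: Gm10093 matches 1444 bases of Hdac1 at 99.4% identity, and Gm5648 matches 1590 bases of Uhrf1 at 98.3%. Neither copy has a row in the table, and the labels do not say how reads matching both places were assigned.

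The order of the levels differed between groups in the middle of the range. In mutant cells it ran Hdac1, Uhrf1, Dnmt1, Satb1, Ezh2, Kdm6b, Suz12, Eed and Ezh1, and the ranges over libraries overlapped between Satb1 and Ezh2, between Ezh2 and Kdm6b and between Kdm6b and Suz12. In WT cells it ran Hdac1, Uhrf1, Dnmt1, Kdm6b, Ezh2, Eed, Satb1, Suz12 and Ezh1, and of neighbours in that order only Eed and Satb1 overlapped. Hdac1 stood at percentile 93.7 of tested genes in mutant and 93.3 in WT cells, and Ezh1 at percentile 33.9 in mutant and 37.6 in WT cells. The authors' own intervals per value were wider than the spread between libraries, with half-widths of 31.6% to 39.3% of the value, and each mutant interval overlapped each WT interval for all of these genes but Kdm6b.

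How libraries were scaled to each other sets the direction of the small differences. Summed FPKM was 542210, 538627 and 651769 in mutant libraries, against 752768, 767148 and 656761 in WT libraries. Scaling every library to the same total moved the median tested gene by 0.29 on the log2 scale toward higher in mutant cells, and 86.5% of called genes were then higher, against 50.5% with the deposited values. Under that scaling the log2 fold changes were 0.63 for Suz12 (limma, adjusted p = 0.00359) and 0.73 for Satb1 (adjusted p = 0.00204), which kept their calls, and -0.14 for Eed (adjusted p = 0.244) and -0.26 for Kdm6b (adjusted p = 0.357), which lost them. Ezh2 (log2 fold change 0.32, adjusted p = 0.0163) and Hdac1 (0.20, adjusted p = 0.0269) were then called higher. Relative to the median gene, the changes under that scaling were -0.44 for Eed, 0.33 for Suz12, -0.56 for Kdm6b, 0.43 for Satb1, 0.02 for Ezh2 and -0.10 for Hdac1. Scaling by the median ratio over genes instead gave a median log2 fold change of -0.000781 over all tested genes, against 0.0097 as deposited. Suz12 and Satb1 were then again called higher and Eed and Kdm6b lower.

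**Figure D4:**
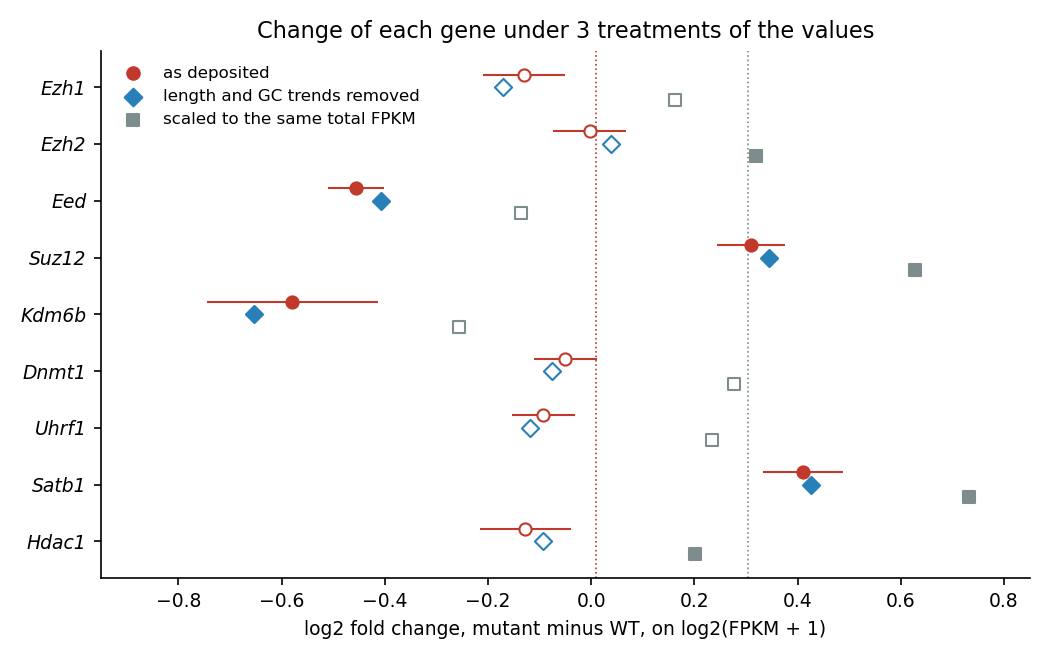
Log2 fold change, mutant minus WT on log2(FPKM + 1), of each of the 9 genes with values as deposited (circles, bars for the SE), with length and GC trends removed (diamonds) and scaled to the same total FPKM (squares), filled at a limma adjusted p under 0.05, with dotted lines at the median of all tested genes as deposited (0.01) and scaled (0.30). Suz12 and Satb1 stayed above 0 and Eed and Kdm6b below 0 in all 3, and scaling moved every gene to the right.

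Genes with the profile most like each called gene were found by the root mean square difference between log2 values, centred on each gene's mean, over the 6 libraries. For Eed these were Mapkapk2 (0.0218), Mkrn1 (0.0242) and Ghitm (0.0243), and for Suz12 they were Gzf1 (0.0258), Syncrip (0.0262) and Kif20b (0.0322). For Satb1 they were Thtpa (0.0224), Ankrd46 (0.0233) and Smarcc1 (0.0285), the last a subunit of the BAF chromatin remodeller. For Kdm6b they were Plec (0.0351), Kmt2a (0.0538) and Igf1r (0.0726), so its nearest profiles were farther off.

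Related chromatin genes were read in 6 lists. Of their 100 tested members, 20 rose and 18 fell, so that 38 were called, against 46.0% of all tested genes. With 1 library left out, 27 to 39 of the members were called, against 34.1% to 44.8% of all tested genes. For the counts by list that follow, 23.2% of all tested genes rose and 22.8% fell. Scaled to the same total, 5375 of all 11385 tested genes rose and 842 fell.

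Of the 8 other PRC2 genes, none rose and 2 fell (median log2 fold change -0.14), while without WT replicate 3, 1 rose and 1 fell. Phf1, an accessory subunit that reads H3K36 methylation, had 3.24 ± 0.338 FPKM in mutant and 4.53 ± 0.298 FPKM in WT cells (SD, n = 3 each; log2 fold change -0.39; limma, adjusted p = 0.00795). Aebp2, which joins the form of PRC2 that holds Jarid2, had 20.9 ± 1.76 FPKM in mutant and 25.6 ± 1.63 FPKM in WT cells (adjusted p = 0.0199), a call that ended without WT replicate 1 (adjusted p = 0.0549) or WT replicate 3 (adjusted p = 0.0520). The histone-binding subunits Rbbp4 and Rbbp7 did not pass, with 85.9 ± 9.13 and 108 ± 4.12 FPKM in mutant cells, against 98.3 ± 6.11 and 116 ± 4.82 FPKM in WT cells. Scaled to the same total, 2 of the 8 rose and none fell.

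Of 21 genes of PRC1, which ubiquitinates H2A and binds the PRC2 mark, 6 rose and 6 fell. These counts were near the shares of all tested genes (23.2% higher and 22.8% lower). Cbx8, a reader of H3K27 trimethylation, had 6.76 ± 0.793 FPKM in mutant and 12.6 ± 0.456 FPKM in WT cells (SD, n = 3 each; log2 fold change -0.81; limma, adjusted p = 0.0002). Scmh1 had 8.46 ± 0.122 FPKM in mutant and 15.1 ± 0.255 FPKM in WT cells (log2 fold change -0.77; adjusted p = 3.24e-05). Rybp, of the variant complexes without a Cbx protein, had 25.5 ± 0.856 FPKM in mutant and 35.4 ± 2.55 FPKM in WT cells (adjusted p = 0.0013). L3mbtl2, of the variant complex built on Pcgf6, went the other way, with 6.34 ± 0.134 FPKM in mutant and 3.03 ± 0.296 FPKM in WT cells (log2 fold change 0.87; adjusted p = 0.000108). Scaled to the same total, 7 of the 21 rose and 2 fell, where 5375 of all 11385 tested genes rose and 842 fell.

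Of 13 H3K27 demethylase and H3K4 methyltransferase genes, 2 rose and 2 fell, and 1 rose whichever of the 6 libraries was left out. The H3K4 methyltransferase Kmt2a had 6.85 ± 1.27 FPKM in mutant and 10.8 ± 1.93 FPKM in WT cells (SD, n = 3 each; limma, adjusted p = 0.0137), and Setd1b had 5.46 ± 1.02 FPKM in mutant and 2.64 ± 0.652 FPKM in WT cells (adjusted p = 0.00362). Ash2l rose and Men1 fell by smaller amounts; the call of Ash2l ended whichever of the 6 libraries was left out (highest adjusted p 0.129, without mutant replicate 2) and that of Men1 without mutant replicate 2 (adjusted p = 0.0611). Of 13 tested DNA methylation genes, 2 rose and 3 fell, and 1 rose without mutant replicate 1 or 2 or WT replicate 1 or 2. The de novo methyltransferase Dnmt3b had 3.90 ± 0.376 FPKM in mutant and 2.47 ± 0.365 FPKM in WT cells (log2 fold change 0.50; adjusted p = 0.00571). The Uhrf1 paralogue Uhrf2 had 20.5 ± 1.11 FPKM in mutant and 29.0 ± 0.351 FPKM in WT cells (log2 fold change -0.48; adjusted p = 0.000479). The hydroxylase Tet2 (log2 fold change -0.41; adjusted p = 0.00835) and the methyl-CpG reader Mbd2 (log2 fold change -0.26; adjusted p = 0.00507) also fell. Scaled to the same total, 6 of the H3K27 and H3K4 list and 7 of the DNA methylation list rose and none fell.

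Of 21 deacetylase and corepressor genes, 5 rose and 2 fell. Among those that rose were CoREST scaffolds: Rcor2 had 16.2 ± 0.614 FPKM in mutant and 9.73 ± 0.535 FPKM in WT cells (SD, n = 3 each; log2 fold change 0.68; limma, adjusted p = 0.00013), and Rcor1 had 40.8 ± 4.38 FPKM in mutant and 29.3 ± 2.97 FPKM in WT cells (adjusted p = 0.00653). Mta1, of the NuRD complex, and the H3K4 demethylase Kdm1a, of CoREST, fell (log2 fold change -0.27 and -0.21), the call of Kdm1a ending without mutant replicate 1 (adjusted p = 0.0577), mutant replicate 2 (adjusted p = 0.0512) or WT replicate 2 (adjusted p = 0.0544). Of 24 tested remodeller and organiser genes, 5 rose and 3 fell. Lmna, which encodes lamins A and C of the nuclear envelope, had 515 ± 48.2 FPKM in mutant and 827 ± 30.4 FPKM in WT cells (log2 fold change -0.69; adjusted p = 0.000964), and Lmnb1, which encodes lamin B1, had 82.5 ± 1.18 FPKM in mutant and 58.4 ± 4.98 FPKM in WT cells (log2 fold change 0.49; adjusted p = 0.00119). The cohesin subunits Stag2 and Stag1 fell (log2 fold change -0.48 and -0.35; adjusted p = 0.000898 and 0.00184). Only 3 genes rose in the deacetylase list without mutant replicate 1 or 2 or WT replicate 1 or 2, and only 3 in the organiser list without mutant replicate 2 or WT replicate 1 or 2. Scaled to the same total, 12 of the deacetylase list rose and none fell, and 14 of the organiser list rose and 1 fell.

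**Figure D5:**
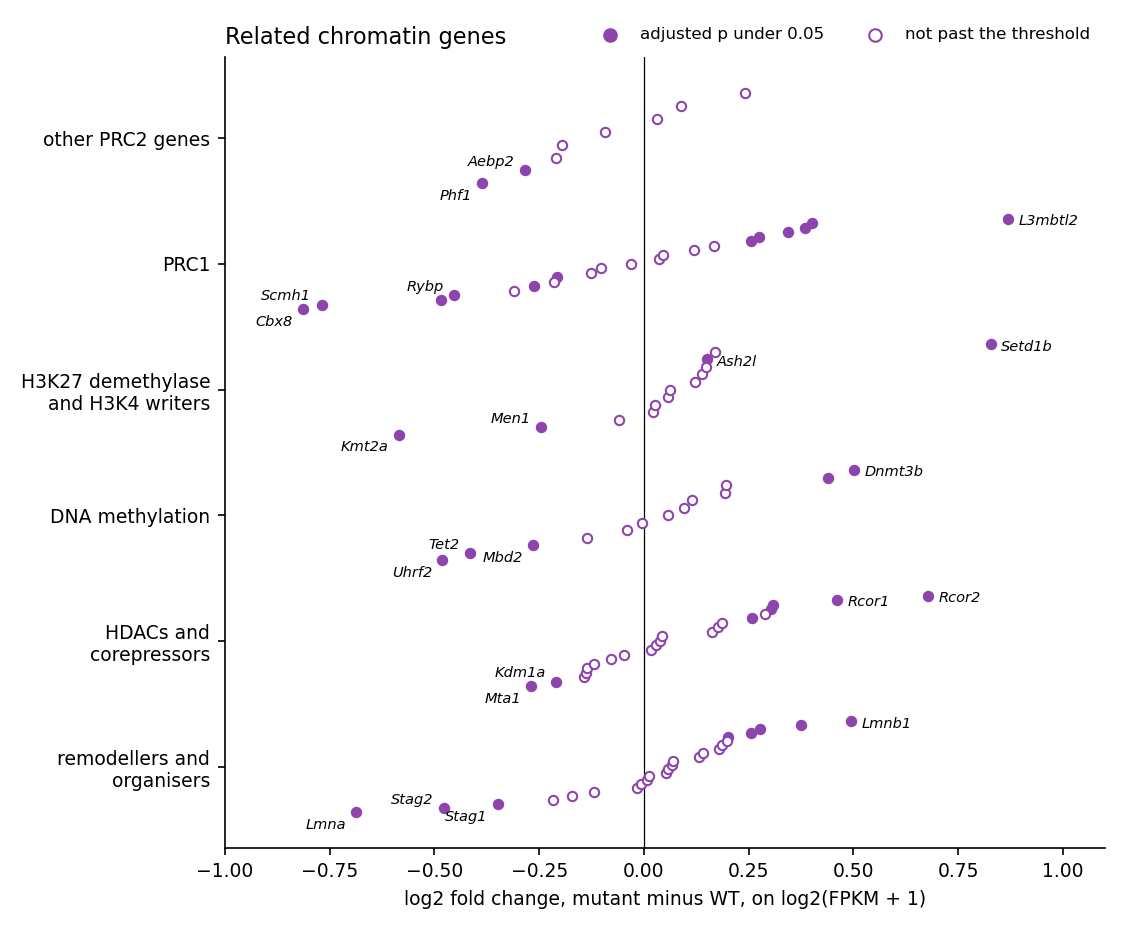
Log2 fold change, mutant minus WT on log2(FPKM + 1), of the 100 tested genes in 6 lists of related chromatin genes, with filled points at a limma adjusted p under 0.05. Calls stood on both sides of 0 in 5 of the lists, and in the other PRC2 genes, where 2 fell, 1 rose and 1 fell without WT replicate 3; scaling libraries to the same total FPKM would move every point to the right.

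Genes known to be held down by PRC2 in epidermis were read for their own levels. Of 10 such genes, the Merkel cell genes and the Cdkn2 inhibitors, 3 passed the filter on low values. Krt8, a keratin of Merkel cells and simple epithelia, had 6.05, 2.29 and 1.68 FPKM in mutant libraries, against 1.01, 0.620 and 1.18 FPKM in WT libraries (log2 fold change 1.04; limma, adjusted p = 0.0313). Its mean was 3.34 FPKM in mutant and 0.937 FPKM in WT cells, so it passed the filter of 1 FPKM only through the mutant libraries and its call carries little weight. Mutant replicate 1 stood well above the others, and the call ended without WT replicate 1 (adjusted p = 0.0646) or WT replicate 2 (adjusted p = 0.0869). Its partner Krt18 had 6.61, 0.547 and 1.14 FPKM in mutant libraries, against 1.54, 1.52 and 0.983 FPKM in WT libraries, so the groups overlapped, and without mutant replicate 1 its log2 fold change turned to -0.36. The Merkel cell regulators Sox2, Atoh1 and Isl1 were at most at 0.255 FPKM in any mutant library and 0.143 FPKM in any WT library. Each was higher in every mutant library than in every WT library, but all were below the filter and untested. Groups did not overlap for 56.0% of all tested genes. Piezo2, also of this list and below the filter, was lower in mutant cells. It was at 0.502 to 0.576 FPKM in mutant and 0.582 to 0.686 FPKM in WT libraries. The inhibitor Cdkn2b had 2.18 ± 0.119 FPKM in mutant and 1.33 ± 0.221 FPKM in WT cells (SD, n = 3 each; adjusted p = 0.0082), and Cdkn2a was at most 0.0755 FPKM in mutant libraries and at 0 in the WT libraries.

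Hox genes are classical Polycomb targets, and 11 of the 39 in the table passed the filter, while 8 were at 0 in every library. Of the 11, 4 rose and 1 fell, so that they were called about as often as all tested genes (46.0%, with 23.2% higher and 22.8% lower). Hoxa4 rose by 0.63 on the log2 scale (limma, adjusted p = 0.000797). Hoxc5 and Hoxc13 rose by 0.43 and 0.37 on the log2 scale (adjusted p = 0.0170 and 0.0135), the call of Hoxc5 ending without mutant replicate 2 (adjusted p = 0.0540). Hoxc6, named after its values were seen, fell by 0.59 on the log2 scale (adjusted p = 0.0257), and no Hox gene was called lower without mutant replicate 1, mutant replicate 3, WT replicate 2 or WT replicate 3. In mutant replicate 2, 5 Hox genes were at 1.47 to 4.34 FPKM that were at most at 0.447 FPKM in any other library, and without that library 3 of 11 tested Hox genes rose and 1 fell. Scaled to the same total, 7 of the 11 rose and none fell, where 5375 of all 11385 tested genes rose and 842 fell.

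Some markers of the cells' make-up and many G2 and M phase genes moved with the groups. The part of make-up and cell cycle in the differences of the 9 genes was not tested. For the counts below, 23.2% of all tested genes rose and 22.8% fell. In bulk samples, fewer cells of a type and less RNA per cell cannot be told apart. The basal keratin Krt5 was at 11360 to 13033 FPKM in mutant and 11888 to 12194 FPKM in WT libraries. Of 6 suprabasal markers 4 rose, and their summed level was 11700 to 14320 FPKM in mutant and 3810 to 4573 FPKM in WT libraries, while 3 of 6 basal markers fell and none rose (1 fell and 2 rose when scaled to the same total). Itga6, which encodes the α6 integrin the cells were sorted on, had 123 ± 2.13 FPKM in mutant and 163 ± 7.55 FPKM in WT cells (SD, n = 3 each; limma, adjusted p = 0.00146), but its log2 fold change of -0.41 was -0.08 (adjusted p = 0.546) when scaled to the same total and its call was also lost under quantile normalization (adjusted p = 0.156). Its partner Itgb4 had 92.7 ± 4.64 FPKM in mutant and 157 ± 13.3 FPKM in WT cells (adjusted p = 0.000239). The hemidesmosome collagen Col17a1 had 402 ± 14.1 FPKM in mutant and 517 ± 54.4 FPKM in WT cells (adjusted p = 0.0170), a call that ended without mutant replicate 2 (adjusted p = 0.0683) or WT replicate 2 (adjusted p = 0.0576) and when scaled to the same total (log2 fold change -0.03). Summed fibroblast markers were at 302.8 to 336.6 FPKM in mutant and 368.9 to 501.2 FPKM in WT libraries (1 of 5 tested fell). The largest part was Dcn, the one that fell, with means of 215 FPKM in mutant and 272 FPKM in WT cells. Col1a1, Col1a2 and Col3a1 overlapped between groups. Summed melanocyte markers were at 11.04 to 14.67 FPKM in mutant and 15.75 to 21.6 FPKM in WT libraries (2 of 3 tested fell). Sox10 of that list, below the filter and overlapping, averaged 0.808 FPKM in mutant and 0.367 FPKM in WT cells. The higher mutant mean came from mutant replicate 1, with 1.72, 0.487 and 0.214 FPKM in mutant replicates 1 to 3. The WT libraries had 0.518, 0.264 and 0.319 FPKM. Erythroid markers summed to 41.73 to 110.7 FPKM in mutant and 131.9 to 217.9 FPKM in WT libraries (2 of 3 tested fell). With libraries scaled to the same total, no fibroblast or melanocyte marker was called lower, while 2 erythroid markers were. Few genes were called lower under that scaling, 842 of all 11385 tested, against 5375 called higher. The median log2 fold change was then -0.23 over the fibroblast and -0.29 over the melanocyte markers, against 0.30 over all tested genes. Endothelial markers summed to at most 1.64 FPKM in mutant and 2.60 FPKM in WT libraries. T cell and immune markers summed to 20.13 to 30.26 FPKM in mutant and 45.13 to 51.37 FPKM in WT libraries, from Thy1, at 16.5 to 26.0 FPKM in mutant and 42.3 to 47.2 FPKM in WT libraries, and Lck. The pan-leukocyte gene Ptprc was at most at 0.0976 FPKM in any library and Cd207 was at 0.

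Ezh2, Dnmt1 and Uhrf1 are known to be expressed most in S phase. Of 24 S phase genes, 1 rose and 4 fell (median log2 fold change -0.06), a smaller share than the 46.0% called over all tested genes. Only 2 fell without mutant replicate 1 or 2 or WT replicate 1 or 2. With library weights 1 rose and 13 fell, where 62.3% of all tested genes were called. The replication licensing factor Cdt1 had 29.7 FPKM in mutant and 46.2 FPKM in WT cells (log2 fold change -0.62; limma, adjusted p = 0.000438), and Cdc45 of the replicative helicase fell by 0.39 on the log2 scale (adjusted p = 0.00313). Of 17 G2 and M phase genes, 12 rose and none fell (median log2 fold change 0.28), where 23.2% of all tested genes rose. With 1 library left out 8 to 11 rose and none fell, except that 1 fell without mutant replicate 3. Library weights gave 11 higher and 1 lower. The mitotic kinase Plk1 had 34.5 ± 2.79 FPKM in mutant and 21.5 ± 0.870 FPKM in WT cells (SD, n = 3 each; log2 fold change 0.65; adjusted p = 0.000284), and Ccnb1 had 64.1 FPKM in mutant and 45.9 FPKM in WT cells (adjusted p = 0.00154). Scaled to the same total, 13 of the S phase genes rose and 1 fell, and all 17 G2 and M phase genes rose. Over all 11385 tested genes, 5375 then rose and 842 fell.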

How the data were processed

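Per the labels' protocols, cells were sorted for α6 integrin, RNA was purified on a kit column and libraries followed a standard Illumina protocol. The deposited FPKM values per gene and library were made by the authors with TopHat and Cufflinks, per the submitters' processing notes, which name mm9; no version, read total, strandedness or scaling between libraries was given in these sources. Of 23315 symbols in GENCODE M21 (GRCm38), 98.9% overlapped the table's position, so positions are read as GRCm38.

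The test was limma 3.58.1 under R 4.3.3 (empirical Bayes with a trend) applied to log2(FPKM + 1) of all 11385 genes averaging 1 FPKM or more, with Benjamini-Hochberg adjustment at 0.05; this scale understates changes of low genes. Ratios of mean FPKM are given beside it. Ratios between genes used the exact two-sided permutation test. The procedure was run on simulated data with 200 genes changed and no shifts shared between genes of a library. In the real data 5234 genes were called and such shifts were seen, so the simulation cannot vouch for these calls. Near-identical transcripts were sought with minimap2 2.31 (at least 90% identity over 200 bases).

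The 9 genes and all lists were chosen with earlier results of these data known. From each list up to 4 genes are named, called genes in order of p and after them the most abundant, with up to 3 nearest profiles per called gene; other genes are stated to be exceptions or are markers. Some genes that this rule takes are left out of the text. Alternatives covered pseudocount, filter, scaling, variance prior, weights, a replicate block, each library left out and, after the data were seen, length and GC trends. Figures were drawn with matplotlib 3.10.9.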

Additional observations from a re-analysis of the deposited data

How the results depend on the processing

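Of 17 alternatives, 1 of them added after the data were seen, Suz12 and Satb1 kept direction and call in all, with log2 fold changes of 0.27 to 0.63 (adjusted p 0.000368 to 0.032) and 0.33 to 0.73 (adjusted p 0.000518 to 0.0194). Eed lost its call only under scaling to the same total FPKM (-0.14), where the log2 fold changes of Ezh1 (0.16), Ezh2 (0.32), Dnmt1 (0.28), Uhrf1 (0.24) and Hdac1 (0.20) turned positive, 4 of the 9 genes were called higher and 0 lower, and over all genes 5375 were higher and 842 lower. Kdm6b lost its call there (-0.26), without a filter on low values (-0.58, adjusted p = 0.0532) and without mutant replicate 2, mutant replicate 3 or WT replicate 3 (-0.71 to -0.42 with each library left out in turn); its adjusted p ranged from 0.00186 to 0.357. Ezh2, at a difference near 0, took either sign with 1 library left out (-0.0516 to 0.0627), under quantile normalization (0.0534) and with length and GC trends removed (0.0384). Quantile normalization also turned Dnmt1 (0.0645), Uhrf1 (0.0568), Hdac1 (0.0699) and Rbbp7 (0.12). Library weights called Uhrf1 (-0.14) and Hdac1 (-0.24) lower, so that 4 of the 9 genes fell, and turned Krt18 (-0.0456), which ranged from -0.36 without mutant replicate 1 to 0.79 without mutant replicate 2; 63 of the 100 related genes were then called, where 62.3% of all genes were, with 1 of the 8 other PRC2 genes higher and 4 lower, and 1 of the 24 S phase genes higher and 13 lower. Genes called lower among the 9 numbered 1 without a filter, and 1 or 2 with 1 library left out. Same-total scaling turned Aebp2 (0.0342), Rbbp7 (0.23), Rbbp4 (0.13), Men1 (0.0693), Mbd2 (0.0632), Mta1 (0.0549) and Kdm1a (0.12), and called 48 of the 100 related genes higher and 3 lower. Of 46 genes named from lists, 24 kept direction and call in every alternative, 18 lost a call with the direction kept in at least 1, and 8 turned. A gene that turned and lost its call in the same alternative, such as Mta1, is counted there as turned only. The causes were not tested.

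Replicate numbers are shared between groups, and the labels do not say that they pair samples. Same-numbered libraries deviated together with r of 0.127, 0.122 and -0.00735, and differently numbered ones with r of -0.157 to 0.0619. These values do not settle whether the numbers pair samples, and the main test did not pair them. With a replicate block, 3798 genes were called instead of 5234, 25 of the 100 related genes instead of 38, and 1 of the 9 genes was called lower, since Kdm6b (-0.58, adjusted p = 0.0608) lost its call. Each library gave no read totals, so counting error could not be computed, and changes smaller than the spread between 3 libraries were not detectable.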

Other observations

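Mutant replicate 2 stood apart in Hox genes that were picked after their values were seen: 5 of the 39 Hox genes exceeded 1 FPKM there and were at least 4 times the highest other library. Hoxb7 was at 4.34 FPKM in that library, against at most 0.259 FPKM in the others, Hoxa7 at 3.92 against at most 0.447, Hoxb8 at 2.56 against at most 0.0386, Hoxb6 at 2.03 against at most 0.131 and Hoxc8 at 1.47 against at most 0.293. Eed was at 22.6 FPKM and Suz12 at 27.3 FPKM in that library, against 22.1 and 23.4 FPKM for Eed and 26.2 and 23.9 FPKM for Suz12 in the other mutant libraries.

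Krt8 and Krt18 were together high in mutant replicate 1, at 6.05 and 6.61 FPKM. Other Merkel cell genes, all below the filter of 1 FPKM, did not share 1 pattern there. Atoh1 was at 0.255 FPKM and Krt20 at 0.152 FPKM, against 0.208 to 0.233 and 0.101 to 0.113 FPKM in the other mutant libraries. Sox2 was at 0.0969, 0.213 and 0.108 FPKM in mutant replicates 1 to 3, so it was lowest in replicate 1. Isl1 was at 0.188, 0.0940 and 0.189 FPKM in mutant replicates 1 to 3.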
